A study of Homo sapiens with 9 samples.

Results

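The cytosolic ribosomal proteins are the 85 genes, of 60671 in the table, whose symbols follow the pattern of large subunit (RPL) and small subunit (RPS) proteins, with RPLP0, RPLP1, RPLP2 and RPSA added and all rows named as pseudogenes left out. They comprised 46 genes for proteins of the large subunit, 31 for proteins of the small subunit, and 8 paralogs, which are second genes that encode a close relative of a ribosomal protein. Their RNA was read in 9 libraries of AC16, a human line labelled as cardiomyocytes and derived from adult ventricular heart cells fused with fibroblasts. Cells received high glucose with chrysin, which is a flavonoid from plants, or high glucose alone, or low glucose, with 3 libraries per group. The labels name no glucose concentration, chrysin dose or exposure time, and do not say whether the libraries came from separate cultures. The spread behind the p-values is thus that between libraries and may be technical.

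A cytosolic ribosome joins a small subunit, which reads the messenger RNA, to a large subunit, which forms peptide bonds and carries a flexible stalk that recruits translation factors. Its proteins are made from some of the most abundant messenger RNAs of a growing cell. In vertebrates these messenger RNAs begin with a C followed by an unbroken run of C and T (U in RNA), the terminal oligopyrimidine or TOP motif, through which the mTORC1 kinase and LARP1 control their translation. Ribosomal protein synthesis is one of the largest costs of cell growth, and heart muscle raises it during hypertrophy.

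Levels are FPKM, fragments counted per length of the gene model and per library size, and fold changes are differences of log2(FPKM + 0.5). Whole reads recovered from these values totalled 18171842 to 23024300 per library. The share of reads from mitochondrially encoded genes was 3.8% to 3.89% with chrysin, 2.8% to 3.04% in high glucose and 2.79% to 2.9% in low glucose. All 10 fibroblast markers averaged at least 1 FPKM, and their summed level was 6368 to 6528 FPKM with chrysin, 9094 to 9566 in high glucose and 7697 to 7995 in low glucose. Of 12 cardiac muscle markers 3 reached that level, MYL2, TBX5 and NKX2-5 were listed at 0 in every library, and the sums were 23.5 to 25.27, 22.14 to 24.53 and 27.77 to 28.78 FPKM in the same order. The 5 smooth muscle markers, 4 of them at 1 FPKM or more, summed to 287.3 to 299.9 FPKM with chrysin, 184.2 to 200.8 in high glucose and 209.6 to 215 in low glucose. Within the fibroblast sum the largest terms were COL1A1 (2813 to 5307 FPKM over all libraries) and VIM (2533 to 2779 FPKM). The part of the shifts in all these sums in the results was not tested, and in bulk RNA fewer cells of a type and less RNA per cell cannot be told apart.

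The ribosomal protein genes were among the most abundant transcripts in every group. The 77 main copies, the genes other than the paralogs, had a median level of 567.7 FPKM over all libraries, against 9.342 FPKM over the 16996 genes tested. RPS2, which sits near the messenger RNA entry of the small subunit, was the highest at a mean of 2146 FPKM. RPLP0, the base of the large subunit stalk, followed at 1727 FPKM. RPL4, which lines the exit tunnel, averaged 1475 FPKM, RPL3, next to the catalytic centre, averaged 1437 FPKM and RPL41, the smallest ribosomal protein, averaged 1404 FPKM. The ranges of RPL4, RPL3 and RPL41 over the libraries overlapped, so their order is not resolved. Of the main copies 11 averaged 1000 FPKM or more and 66 averaged 200 FPKM or more.

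**Figure D1:**
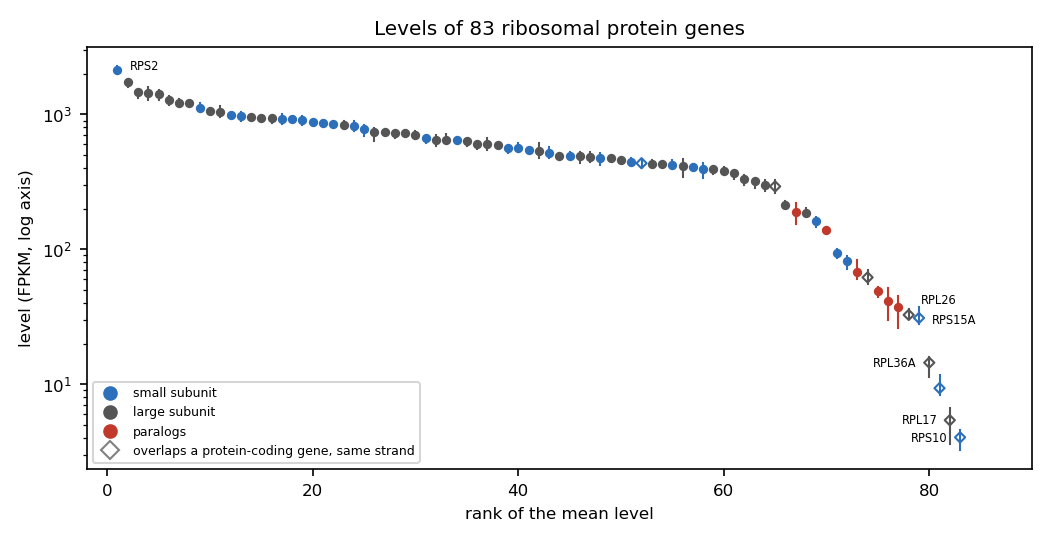
Mean level of the 83 ribosomal protein genes above the expression filter, in FPKM on a log axis, ordered by rank; vertical lines span the 9 libraries, and open diamonds are genes that overlap a protein-coding gene on the same strand. The main copies run between 4.039 and 2146 FPKM, and the low end holds open diamonds and red paralogs.

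The low end of the main copies was made of genes whose annotation overlaps another gene. RPS10 and RPL17, which every cytosolic ribosome contains, averaged only 4.039 and 5.411 FPKM, and RPL36A, RPS15A, RPL26 and RPL22 averaged 14.45, 30.96, 32.64 and 61.9 FPKM. Each of these 6 genes overlaps a protein-coding gene of GENCODE 29 on the same strand, such as the readthrough genes RPS10-NUDT3 for RPS10 and RPL17-C18orf32 for RPL17. The rows of the overlapping genes of RPS10, RPL17, RPL36A, RPS15A and RPL26 were listed at 0 in every library. RPL36 and RPS13 also have such an overlap. The 9 overlapped genes had a median of 30.96 FPKM, and the 68 others had a median of 637.9 FPKM and none below 81.23 FPKM. The sources used here do not say how reads in overlaps were assigned, and the part of overlaps in these levels was not tested.

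Rows named as pseudogenes held few of the recovered reads. The sources used here do not say how reads that match both a gene and a pseudogene were assigned or whether they were kept. The table held 1237 rows named as pseudogenes of these proteins, 427 of them above 0, and together they took 0.0981% to 0.111% of the reads per library. Pseudogene rows existed for 78 of the 85 genes and held more than 10% of the gene's own reads for 8. The row RPS28P7 averaged 295 FPKM, more than the 81.23 FPKM of RPS28, and the pseudogene rows of RPS10 held 131% of the reads of RPS10. The levels of RPS28 and RPS10 are therefore uncertain. For RPL26, RPL22 and RPL17 the pseudogene rows held 26.5%, 25.7% and 20.3% of the gene's own reads, so those levels are less certain as well. With pseudogene reads added to their genes, the counts of genes called in each direction changed by at most 1.

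Promoters were read from RefSeq (GRCh38.p14) for the 68 ribosomal protein genes with an entry, using all 84 listed starts. A run of at least 8 bases that are each C or T, on the gene's strand and overlapping bases -5 to +10 around the annotated start, was found in 54 of the 68 genes (79.4%). The share was 15.5% of all 27305 genes in the promoter table and 17.5% of the 10806 that were also tested here. CTTTCC, which is itself made of C and T and can lie inside such a run, occurred on the gene's strand between -20 and +30 in 33.8% of the ribosomal protein genes and 2.94% of all genes. CCGGAAG, the core recognised by ETS factors, occurred on either strand within the 300 bases given per start in 35.3% of the ribosomal protein genes, 12.2% of all genes and 22.2% of the genes tested. TATAAA, the TATA box, occurred on the gene's strand in 5.88%, 8.99% and 5.46%, in the same order. These matches are descriptions of letters, not of binding.

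The starts shown here are those of the genes whose values follow, with each paralog next to its main copy, so that genes with and without the run can be compared. Each sequence covers 45 bases before the annotated start and 15 from it, 5′ to 3′ on the gene's strand, with the C and T run in capitals. RPLP0 and RPS19 show the usual arrangement, and RPL12 and RPL3 are abundant main copies in which no run of this length was found in the window. RPS27L and RPL26L1 have none either, unlike RPS27 and RPL26, while RPL22L1 and RPL36AL have one, as do RPL22 and RPL36A. RPS19 and RPL26L1 have a second listed start, which is not printed and holds no such run. Shorter runs of C and T do lie at the annotated start of RPL12 (CCTCTC) and RPL3 (CCTCT). A gene listed here without a run of at least 8 bases can therefore still begin with a TOP motif as described above.
RPLP0 (chr12:120201097-120201156, minus strand): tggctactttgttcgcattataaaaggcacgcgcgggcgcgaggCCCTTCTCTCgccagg
RPS19 (chr19:41860210-41860269, plus strand): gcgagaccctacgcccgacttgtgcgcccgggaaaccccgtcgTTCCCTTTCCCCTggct
RPL12 (chr9:127451392-127451451, minus strand): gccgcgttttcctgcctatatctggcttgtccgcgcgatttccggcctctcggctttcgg
RPL3 (chr22:39319609-39319668, minus strand): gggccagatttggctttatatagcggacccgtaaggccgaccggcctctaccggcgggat
RPS27 (chr1:153990717-153990776, plus strand): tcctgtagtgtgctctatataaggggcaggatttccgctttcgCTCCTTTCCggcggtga
RPS27L (chr15:63157463-63157522, minus strand): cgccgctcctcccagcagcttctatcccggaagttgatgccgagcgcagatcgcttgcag
RPL22 (chr1:6199581-6199640, minus strand): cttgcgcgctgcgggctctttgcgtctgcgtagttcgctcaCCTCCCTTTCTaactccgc
RPL22L1 (chr3:170870181-170870240, minus strand): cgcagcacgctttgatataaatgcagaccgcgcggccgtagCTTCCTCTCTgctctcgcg
RPL36A (chrX:101390966-101391025, plus strand): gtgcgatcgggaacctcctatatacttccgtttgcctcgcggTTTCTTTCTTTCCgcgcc
RPL36AL (chr14:49620612-49620671, minus strand): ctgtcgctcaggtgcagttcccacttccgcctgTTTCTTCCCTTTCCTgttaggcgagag
RPL26 (chr17:8383179-8383238, minus strand): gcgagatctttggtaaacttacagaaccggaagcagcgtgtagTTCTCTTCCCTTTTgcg
RPL26L1 (chr5:172958684-172958743, plus strand): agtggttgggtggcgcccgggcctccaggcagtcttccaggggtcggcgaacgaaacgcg

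The paralogs spanned a wider range of changes with chrysin than the main copies, in both directions. Against high glucose alone, 2 of the 6 paralogs tested were higher with chrysin and 3 were lower (33.3% and 50%, where 24.9% and 20.9% of all genes tested were called), with log2 fold changes between -0.61 and 0.32, while the 77 main copies lay between -0.18 and 0.23. Whether the 2 sets differ was not tested. The other 2 paralogs were too low to test. RPL3L, the striated muscle relative of RPL3, was listed at 0 in 7 libraries and reached at most 0.09802 FPKM in the other 2, and RPL10L, which is testis-enriched, was listed at 0 in all 9.

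RPS27L (chromosome 15, 63125872 to 63158021, minus strand, hg38), a p53-induced relative of RPS27, showed the largest change of the family. Its level was 26.21, 26.74 and 27.02 FPKM with chrysin, against 42.63, 39.71 and 40.53 FPKM in high glucose and 44.03, 44.00 and 44.79 FPKM in low glucose. The chrysin libraries lay below all 6 others, and the high glucose libraries lay just below the low glucose ones. With chrysin it fell to 0.655 of the high glucose level (log2 fold change -0.61, SE 0.037, limma adjusted p = 6.3e-07) and to 0.606 of the low glucose level (-0.72, adjusted p = 1.2e-07). Between high and low glucose the change of -0.11 missed the threshold (adjusted p = 0.052) and passed it without high glucose library 1 (-0.14, adjusted p = 0.017). RPS27, the main copy, had 379.2, 383.6 and 409.2 FPKM with chrysin, 401.9, 370 and 338.6 FPKM in high glucose and 435.1, 406.3 and 427.3 FPKM in low glucose. Its chrysin and high glucose values overlapped (0.08, adjusted p = 0.26), and the difference passed the test without high glucose library 1 (0.14, adjusted p = 0.032). The level of RPS27L was 6.60% to 6.97% of that of RPS27 with chrysin, 10.6% to 12% in high glucose and 10.1% to 10.8% in low glucose.

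RPL22L1 (chromosome 3, 170864875 to 170870483, minus strand), which can replace RPL22 in the large subunit and is linked to RNA splicing, was lowest with chrysin and highest in low glucose. It had 32.96, 29.73 and 32.54 FPKM with chrysin, 43.74, 42.98 and 40.43 FPKM in high glucose and 49.78, 47.76 and 51.29 FPKM in low glucose. No group overlapped another. It was lower with chrysin than in high glucose (-0.41, SE 0.05, adjusted p = 6.3e-05) and lower in high than in low glucose (-0.22, adjusted p = 0.008). RPL22 itself was also lower with chrysin than in high glucose (-0.18, adjusted p = 0.023), with 56.23, 61.44 and 55.56 FPKM against 66.55, 60.58 and 69.73 FPKM. Those ranges overlapped, and RPL22 is one of the genes with an overlapping neighbour. The RPL22 call was lost without chrysin library 1 (adjusted p = 0.074) or 3 (0.085), without high glucose library 1 (0.061) or 3 (0.087), with no filter (0.059) and with pseudogene reads added (0.074).

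RPL36AL (chromosome 14, 49618519 to 49620685, minus strand), which encodes a protein nearly identical to that of RPL36A, moved in the other direction. It had 217.2, 219.9 and 215.9 FPKM with chrysin, 200.6, 174 and 183.3 FPKM in high glucose and 163.2, 161.5 and 155 FPKM in low glucose. The 3 groups did not overlap. The increase was 0.23 with chrysin over high glucose (adjusted p = 0.0018), 0.22 in high over low glucose (adjusted p = 0.0059) and 0.44 with chrysin over low glucose (adjusted p = 1.4e-05). RPL36A was listed far lower, at 13.93 to 16 FPKM with chrysin, 11.37 to 15.44 FPKM in high glucose and 14.28 to 15.22 FPKM in low glucose. None of its 3 differences passed the test.

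RPL26L1 (chromosome 5, 172958729 to 172969771, plus strand), the relative of RPL26, rose with chrysin. It had 74.98, 83.97 and 80.01 FPKM with chrysin, 59.9, 68.97 and 62.33 FPKM in high glucose and 63.05, 60.73 and 60.36 FPKM in low glucose. The chrysin values lay above all others, and the high and low glucose values overlapped. The log2 fold change was 0.32 against high glucose (SE 0.055, adjusted p = 0.00073) and 0.37 against low glucose (adjusted p = 0.00021), and 0.05 between high and low glucose (adjusted p = 0.55). RPL39L, best known from testis and cancer cells, was lower with chrysin, at 47.91, 44.47 and 44.01 FPKM against 52.95, 51.16 and 52.51 FPKM in high glucose (-0.20, adjusted p = 0.0024). Its low glucose libraries had 51.87, 48.79 and 49.83 FPKM, and the chrysin libraries lay below them too (-0.14, adjusted p = 0.014). That last call was lost without chrysin library 2 (adjusted p = 0.053) or 3 (0.059) or low glucose library 1 (0.06), and when libraries were scaled to the median of the ribosomal protein genes (0.17). RPL7L1, which takes part in assembly of the large subunit, stayed between 134.5 and 146.5 FPKM in all 9 libraries and passed no test.

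**Figure D2:**
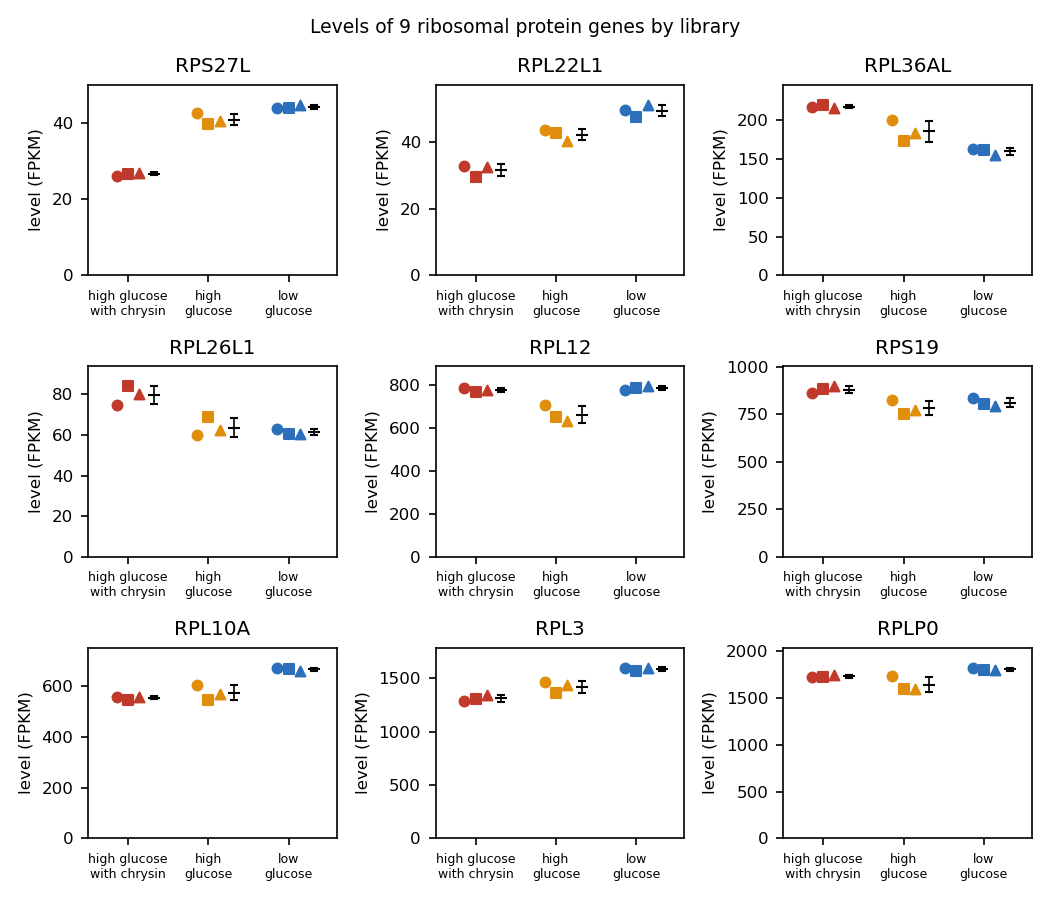
FPKM of 9 ribosomal protein genes in each library, with high glucose and chrysin in red, high glucose in orange and low glucose in blue; circles, squares and triangles are libraries 1, 2 and 3, and black marks give the group mean ± SD (n = 3). RPS27L and RPL22L1 are lowest with chrysin, RPL36AL and RPL26L1 are highest with chrysin, and RPL12 and RPLP0 are lowest in high glucose libraries 2 and 3.

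In high glucose most main copies sat slightly below low glucose. Of the 83 genes tested 22 were lower in high glucose (26.5%), where 8.91% of all genes tested were lower, and 1 was higher, RPL36AL (1.20%), where 14.6% of all genes were higher. The median log2 fold change was -0.086, against 0.025 over all genes, and 72 of the 77 main copies were below 0. The changes were small, between -0.31 and 0.22, and the median half-width of their 95% confidence intervals was 0.08. The large subunit had 14 of 46 main copies lower and the small subunit 7 of 31, with medians of -0.091 and -0.079. The groups did not overlap, with high glucose lower, for 27 of the 83 genes (32.5%), and the same held for 15.4% of all genes.

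This difference depended on which high glucose library was included. High glucose library 1 was above libraries 2 and 3 of its group in 77 of the 83 ribosomal protein genes (92.8%), and in 35.8% of all genes tested. Libraries 2 and 3 were both below every low glucose library for 69 genes, and library 1 was below every low glucose library for 29. The ribosomal protein genes took 4.17%, 4.18% and 4.26% of the reads with chrysin, 4.36%, 4.01% and 4.06% in high glucose libraries 1 to 3, and 4.45%, 4.39% and 4.36% in low glucose. Library 1 thus reached the lower edge of the low glucose range, and libraries 2 and 3 lay below both other groups. Without library 1, 55 genes were lower in high than in low glucose (66.3%, background 8.47%) and 1 was higher (background 13.6%), and the median was -0.121. Without library 2, 3 or low glucose library 1 the count of lower genes was 10, 12 and 10 (all genes, 7.3%, 7.89% and 6.93%).

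**Figure D3:**
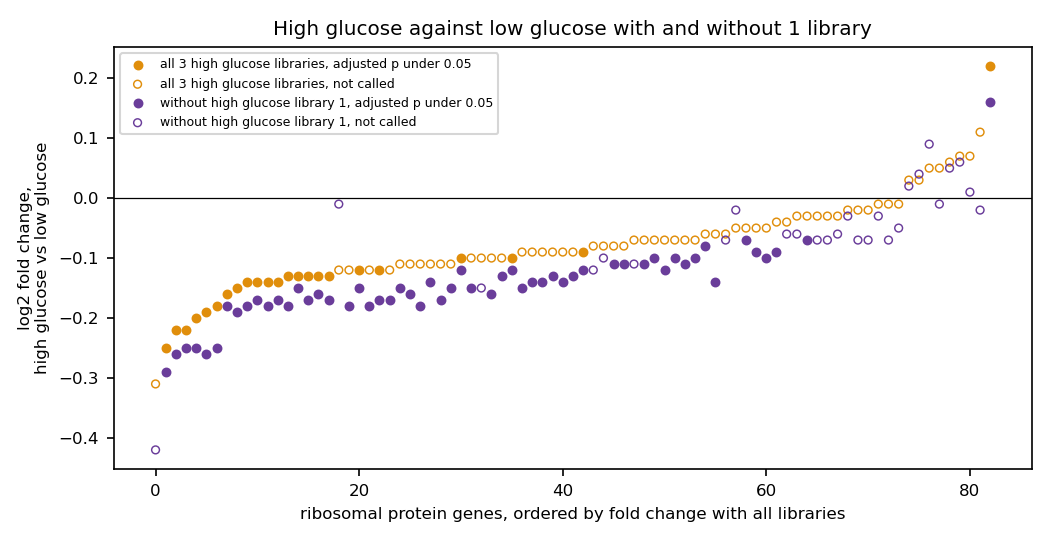
Log2 fold change of high glucose against low glucose for the 83 ribosomal protein genes, ordered by the value with all libraries (orange) and shown again without high glucose library 1 (purple); filled points have an adjusted p under 0.05. Most purple points lie below the orange ones, with 55 genes called lower against 22.

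The count also moved with other processing. With median-of-ratios scaling 39 genes were lower and 1 higher (all genes, 11% and 11.7%). With limma voom on recovered reads, which changes the input, the model and the scaling together, 54 were lower and 1 higher (all genes, 13.3% each way), and with a correction for GC content and length 45 and 1 (all genes, 12.6% and 12.8%). When every library was scaled to the median of the ribosomal protein genes themselves, 3 were higher and 2 lower (all genes, 22.1% and 4.04%), and the median over all genes was 0.10. RPL10A and RPL12 were lower and RPL36AL, RPL6 and RPS26 higher under that scaling, genes picked out here after their values were seen. Among the genes named here, RPL22L1, RPL3, RPL32, RPL4, RPLP0 and RPS6 did not pass the test between high and low glucose under it (adjusted p = 0.077, 0.051, 0.32, 0.18, 0.064 and 0.76). RPS27, called lower before that scaling (-0.19, adjusted p = 0.027), did not pass the test under it either (-0.11, adjusted p = 0.076).

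RPL12 (chromosome 9, 127447674 to 127451405, minus strand), which forms the base of the stalk with RPLP0, showed the largest of the called decreases in high glucose. It had 787.9, 768.2 and 778.1 FPKM with chrysin, 705.6, 651.2 and 632.4 FPKM in high glucose and 778.5, 789 and 794.3 FPKM in low glucose. All 3 high glucose values lay below the other 6. It was 0.841 of the low glucose level in high glucose (log2 fold change -0.25, SE 0.035, adjusted p = 0.00066), and higher with chrysin than in high glucose (0.23, adjusted p = 0.00032). Between chrysin and low glucose the difference was -0.02 (95% confidence interval -0.09 to 0.06, adjusted p = 0.72), and it passed the test with voom (-0.08, adjusted p = 0.032) and with the GC and length correction (-0.09, adjusted p = 0.023). The comparisons share libraries, so these values are not independent of each other. RPL32, a large subunit protein, had the same order, with 384.1, 379.1 and 386.2 FPKM with chrysin, 358.3, 332.7 and 352.2 FPKM in high glucose and 383.4, 380.9 and 374.2 FPKM in low glucose. Its log2 fold change was -0.13 in high against low glucose (adjusted p = 0.0096) and 0.14 with chrysin against high glucose (adjusted p = 0.0024).

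RPL10A (chromosome 6, 35468408 to 35470785, plus strand), which forms the other lateral stalk of the large subunit, was lower in high glucose and stayed low with chrysin. It had 558.1, 546.7 and 556.6 FPKM with chrysin, 605, 547 and 569.7 FPKM in high glucose and 671.7, 668.1 and 660.3 FPKM in low glucose. The chrysin and high glucose values overlapped, and both groups lay below low glucose. The log2 fold change was -0.22 in high against low glucose (SE 0.033, adjusted p = 0.00096), -0.27 with chrysin against low glucose (adjusted p = 5.5e-05) and -0.05 with chrysin against high glucose (adjusted p = 0.24). That last difference passed the test with own-median scaling (-0.08, adjusted p = 0.021), voom (-0.08, 0.036) and the GC and length correction (-0.07, 0.026), and without high glucose library 2 (-0.08, 0.042).

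RPL3 was lowest with chrysin and highest in low glucose. It had 1281, 1303 and 1342 FPKM with chrysin, 1463, 1357 and 1434 FPKM in high glucose and 1592, 1566 and 1595 FPKM in low glucose. The 3 groups did not overlap. The log2 fold change was -0.16 in high against low glucose (adjusted p = 0.0031) and -0.12 with chrysin against high glucose (adjusted p = 0.0085). RPL4 had 1491, 1500 and 1517 FPKM with chrysin, 1448, 1330 and 1409 FPKM in high glucose and 1544, 1519 and 1521 FPKM in low glucose. It was lower in high glucose than in low glucose (-0.13, adjusted p = 0.008) and higher with chrysin than in high glucose (0.11, adjusted p = 0.011), a call lost under median-of-ratios scaling (0.08, adjusted p = 0.05). RPS6, the small subunit protein that S6 kinase phosphorylates, was lower in high glucose than in low glucose (-0.10, adjusted p = 0.011), with 835.4, 811.1 and 803.8 FPKM against 884.7, 869.7 and 869.5 FPKM.

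The other stalk proteins are RPLP0, RPLP1 and RPLP2, and differences among their changes were not tested. RPLP0 had 1726, 1720 and 1750 FPKM with chrysin, 1732, 1601 and 1594 FPKM in high glucose and 1821, 1796 and 1800 FPKM in low glucose. It was lower in high glucose than in low glucose (-0.14, adjusted p = 0.0079). Its difference of 0.08 between chrysin and high glucose did not pass the test (adjusted p = 0.057), and passed it without high glucose library 1 (0.12, adjusted p = 0.00029). RPLP2, which pairs with RPLP1 in the acidic dimers of the stalk, had 588.5, 568 and 612.1 FPKM with chrysin, 560.6, 481.7 and 471.9 FPKM in high glucose and 530.6, 520.3 and 522.1 FPKM in low glucose. The chrysin values lay above all others (0.23 against high glucose, adjusted p = 0.0063; 0.17 against low glucose, adjusted p = 0.026). The call against low glucose did not hold under median-of-ratios scaling (0.11, adjusted p = 0.13), voom (0.057) and no filter (0.077). It was also lost without chrysin library 1 (0.058) or 3 (0.094) and without low glucose library 2 (0.067) or 3 (0.064). RPLP1 itself had 619.5, 636.7 and 661.6 FPKM with chrysin, 677, 607.9 and 598.3 FPKM in high glucose and 679.8, 718.4 and 619.2 FPKM in low glucose, and passed no test, except that it was lower than low glucose with voom (-0.13 with chrysin, adjusted p = 0.012; -0.13 in high glucose, adjusted p = 0.026).

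RPL5 and RPL11, which form a particle with 5S ribosomal RNA that binds MDM2, passed no test on the FPKM values as deposited, with all libraries. RPL5 had 950.3, 934.6 and 955.4 FPKM with chrysin, 959.6, 913.9 and 919.3 FPKM in high glucose and 971.3, 967.9 and 966.1 FPKM in low glucose. RPL11 had 698.1, 696.7 and 694.8 FPKM with chrysin, 747.7, 652.3 and 674 FPKM in high glucose and 750.4, 734.3 and 723.1 FPKM in low glucose. High glucose library 1 of RPL11 lay within the low glucose range and its libraries 2 and 3 lay below both other groups. Without that library RPL11 was lower in high glucose than in low glucose (-0.15, adjusted p = 0.0014), and so was RPL5 (-0.08, adjusted p = 0.009). Both were then higher with chrysin than in high glucose (0.07 for RPL11, adjusted p = 0.025, and 0.05 for RPL5, adjusted p = 0.048). RPL11 was also lower with chrysin than in low glucose (-0.08, adjusted p = 0.007), and RPL5 was not called there (-0.03, adjusted p = 0.096). With all libraries both were lower in high than in low glucose with voom (-0.13 for RPL11, adjusted p = 0.0088; -0.09 for RPL5, adjusted p = 0.011) and with the GC and length correction (adjusted p = 0.039 for RPL11 and 0.045 for RPL5). Both were also lower with chrysin than in low glucose with voom (-0.14 for RPL11, adjusted p = 0.0013; -0.10 for RPL5, adjusted p = 0.0028). Median-of-ratios scaling gave the same calls (-0.14 for RPL11, adjusted p = 0.02, and -0.09 for RPL5, adjusted p = 0.0096). Under it RPL5 was also lower in high than in low glucose (-0.09, adjusted p = 0.028), and RPL11 was not called (-0.12, adjusted p = 0.065). RPSA, the laminin receptor and small subunit protein, ranged from 873.7 to 941.8 FPKM over all libraries and passed no test in any comparison, with or without library 1, except with voom, where it was lower with chrysin than in low glucose (-0.07, adjusted p = 0.039).

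With chrysin added to high glucose, smaller shares of the family than of all genes were called in either direction when all libraries were kept. The family median was then near that of all genes. Of the 83 genes 16 were higher (19.3%), where 24.9% of all genes tested were higher, and 9 were lower (10.8%), where 20.9% were lower. The median was 0.028, against 0.030 over all genes. Both shares were thus below those of all genes. The large subunit had 8 main copies higher and 5 lower, the small subunit 6 and 1. Groups did not overlap for 15 higher and 9 lower genes (18.1% and 10.8%, against 29.8% and 24.5% of all genes). Without high glucose library 1 the counts were 38 higher and 7 lower (45.8% and 8.43%, background 23.6% and 20.1%) with a median of 0.065. With median-of-ratios scaling 9 were higher and 11 lower (all genes, 22.4% and 23.4%), with voom 14 and 15 (all genes, 23.8% and 25%), and with the GC and length correction 17 and 18 (all genes, 24.4% and 23.7%). Scaling to the family's own median gave 16 and 15 (all genes, 20.5% and 21.3%), and leaving out mitochondrially encoded genes gave 28 and 8 (all genes, 26.8% and 19.4%).

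**Figure D4:**
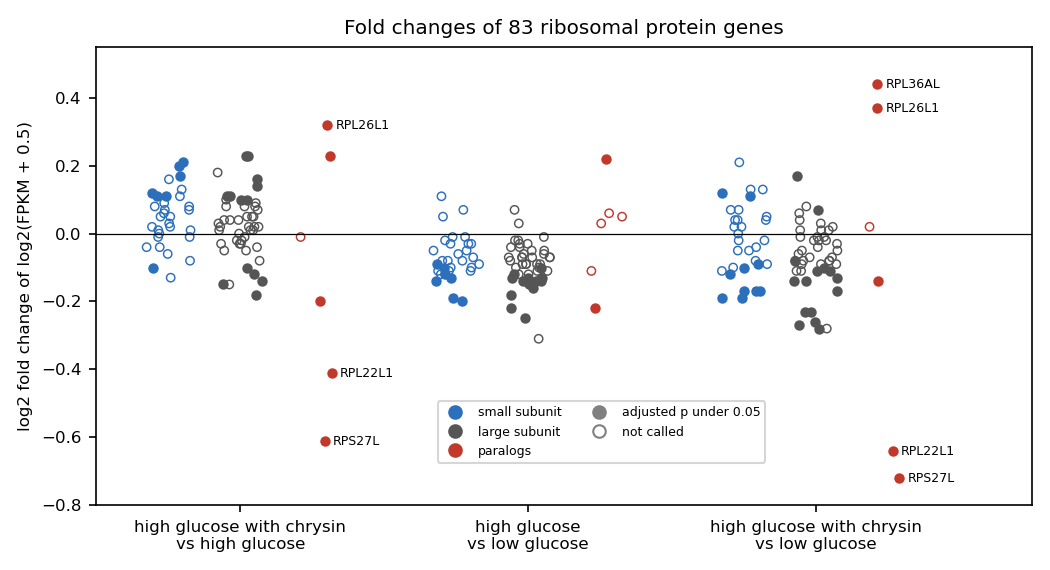
Log2 fold changes of the 83 ribosomal protein genes in the 3 comparisons, with small subunit genes in blue, large subunit genes in grey and paralogs in red; filled points have an adjusted p under 0.05. The main copies stay between -0.31 and 0.23, and the paralogs RPS27L, RPL22L1, RPL26L1 and RPL36AL reach -0.72 to 0.44.

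RPS19, mutated in Diamond-Blackfan anaemia, had 863.6, 880.4 and 896.2 FPKM with chrysin, 822.3, 752.9 and 774.5 FPKM in high glucose and 835.7, 805.2 and 792.6 FPKM in low glucose. Its chrysin libraries lay above the other 6, with a log2 fold change of 0.17 against high glucose (adjusted p = 0.002). RPL6, a large subunit protein, was lower with chrysin at 1125, 1147 and 1167 FPKM, against 1293, 1229 and 1275 FPKM in high glucose and 1251, 1257 and 1204 FPKM in low glucose (-0.14 against high glucose, adjusted p = 0.0013).

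Against low glucose, chrysin in high glucose left 24 genes lower (28.9%, background 21.3%) and 6 higher (7.23%, background 29.7%), with a median of -0.051 against 0.051 over all genes. This comparison shares its libraries with the other 2. The groups did not overlap for 37 lower and 12 higher genes (44.6% and 14.5%, against 25.4% and 34.6% of all genes). The counts were 44 lower and 2 higher with median-of-ratios scaling (all genes, 25.6% and 24.8%) and 50 and 2 with voom (all genes, 27.1% and 25.4%). They were 14 lower and 18 higher when libraries were scaled to the family's own median (all genes, 16% and 32%). Without high glucose library 1, which is in neither group, 37 were lower and 10 higher (all genes, 22.1% and 30.4%). The higher genes included RPL36AL, RPL26L1, RPLP2 and RPS19. For RPS19 the result depended on the scaling. Its log2 fold change of 0.12 (adjusted p = 0.013) shrank to 0.06 when median-of-ratios factors were used and to 0.05 in the voom fit. Neither of those values passed the test (adjusted p = 0.17 and 0.14, in that order). Scaled to the family's own median, RPS19 stayed higher (0.17, adjusted p = 0.00011).

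RPL10, needed for a late step of large subunit maturation, had 588.4, 589.8 and 585.9 FPKM with chrysin, 700.7, 628.9 and 636.8 FPKM in high glucose and 705.5, 707 and 700.2 FPKM in low glucose. Its log2 fold change with chrysin was -0.26 against low glucose (adjusted p = 0.00012) and -0.15 against high glucose (adjusted p = 0.0045). RPL13, a large subunit protein, had 974.5, 963.2 and 981.8 FPKM with chrysin, 1088, 1020 and 987 FPKM in high glucose and 1158, 1145 and 1113 FPKM in low glucose (-0.23 with chrysin against low glucose, adjusted p = 0.00019). For RPL10 and RPL13 the chrysin values lay below those of both other groups. The RPL13 difference between chrysin and high glucose did not pass the test (-0.08, adjusted p = 0.062). It passed with median-of-ratios scaling (-0.11, adjusted p = 0.019), voom (-0.11, 0.0017) and own-median scaling (-0.11, 0.0029), and not without high glucose library 1 (-0.04, 0.14).

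Genes that work with these proteins were counted from lists. Of 48 ribosome assembly factors, the nucleolar proteins that build the subunits, 33 were higher and 3 lower with chrysin than in high glucose, with a median of 0.244, and 12 passed no test. These are shares of 68.8% and 6.25%, against 24.9% and 20.9% of all genes. Against low glucose 29 were higher and 7 lower with chrysin (60.4% and 14.6%, all genes 29.7% and 21.3%). High against low glucose gave 6 and 5 (12.5% and 10.4%), near the 14.6% and 8.91% of all genes. Their share of reads was 0.593%, 0.593% and 0.597% with chrysin, 0.523%, 0.517% and 0.524% in high glucose and 0.533%, 0.531% and 0.531% in low glucose. The chrysin libraries thus stood above the other 6 for the assembly factors and within the range of the other 6 for the ribosomal proteins, and the difference between the 2 lists was not tested. Over 21 alternative settings the count of assembly factors higher with chrysin than in high glucose ran from 29 to 34. BOP1, needed for the large subunit, had 141.2, 153.5 and 144.7 FPKM with chrysin against 104.1, 98.46 and 102.6 FPKM in high glucose (0.52, adjusted p = 1.2e-06). NOLC1, a chaperone of small nucleolar RNA particles, had 130.4, 130.6 and 130.5 FPKM with chrysin against 96.06, 95.51 and 98.75 FPKM in high glucose (0.43, adjusted p = 6.3e-07).

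**Figure D5:**
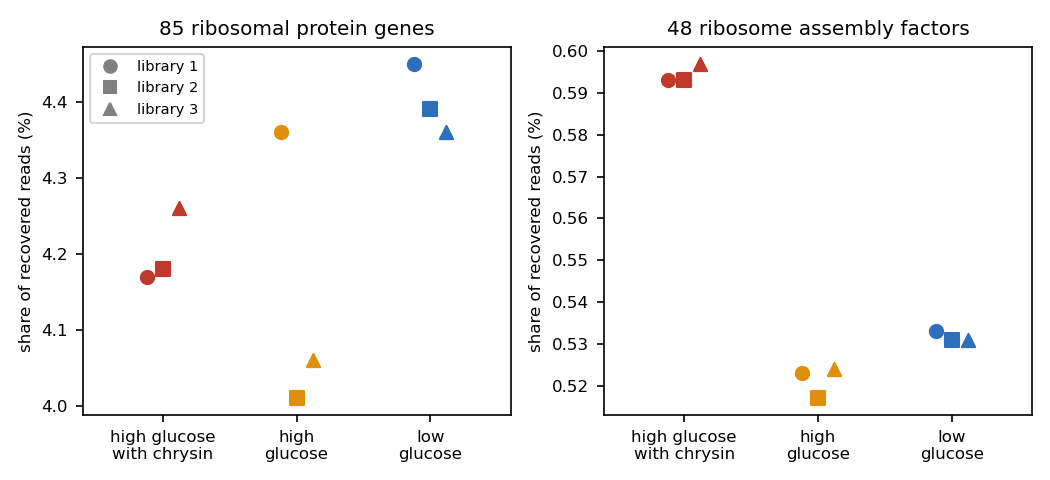
Share of recovered reads, in percent, taken by the 85 ribosomal protein genes (left) and by 48 ribosome assembly factors (right) in each library, on axes that do not start at 0; red is high glucose with chrysin, orange high glucose and blue low glucose. The ribosomal protein share runs from 4.01% to 4.45% with high glucose library 1 apart from libraries 2 and 3, and the assembly factor share is 0.593% to 0.597% with chrysin against 0.517% to 0.533% elsewhere.

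RNA polymerase I, which transcribes ribosomal RNA, was covered by 11 genes of its subunits and factors. With chrysin 7 were higher and 1 lower than in high glucose (63.6% and 9.09%, all genes 24.9% and 20.9%), and in high glucose 1 was higher and 4 lower than in low glucose (9.09% and 36.4%, all genes 14.6% and 8.91%). POLR1A, the largest subunit, had 71.09, 77.49 and 72.47 FPKM with chrysin, 49.41, 51.41 and 51.91 FPKM in high glucose and 54.96, 53.98 and 51.26 FPKM in low glucose (0.53 against high glucose, adjusted p = 3.6e-06). TAF1D, of the promoter selectivity factor, had 75.95, 77.02 and 81.05 FPKM with chrysin, 74.07, 81.18 and 78.36 FPKM in high glucose and 105, 101.7 and 105.5 FPKM in low glucose (-0.42 in high against low glucose, adjusted p = 5.5e-05).

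Of 16 translation factors and other transcripts known to carry the TOP motif 15 were tested. In high against low glucose 7 were lower (46.7%, all genes 8.91%), with a median of -0.095, and over the 21 alternative settings the count of lower genes ran from 2 to 11. With chrysin against high glucose 7 were higher and 5 lower (46.7% and 33.3%, all genes 24.9% and 20.9%). EEF2, the translocation factor, had 2546, 2501 and 2607 FPKM with chrysin, 2384, 2340 and 2267 FPKM in high glucose and 2683, 2679 and 2638 FPKM in low glucose (-0.19 in high against low glucose, adjusted p = 0.00032). GAS5, a noncoding RNA whose introns hold small nucleolar RNAs, had 174.5, 180.2 and 172.5 FPKM with chrysin, 193.9, 192.7 and 196 FPKM in high glucose and 275.5, 271.3 and 282 FPKM in low glucose (-0.51 in high against low glucose, adjusted p = 6.8e-07). HNRNPA1, a splicing factor with many processed pseudogenes, had 565.4, 593.2 and 565.6 FPKM with chrysin against 1088, 1097 and 1121 FPKM in high glucose (-0.94, adjusted p = 4.4e-09). EEF1A1, the factor that delivers aminoacyl-tRNA, was lower too, at 2317, 2327 and 2347 FPKM with chrysin against 2852, 2729 and 2822 FPKM in high glucose (-0.27, adjusted p = 4.7e-06). EIF3H was among the 7 genes higher with chrysin than in high glucose (0.26, adjusted p = 4.5e-05), and so was EEF2 (0.13, adjusted p = 0.0013).

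Of 14 regulators of TOP translation and S6 kinase, 5 were higher and 3 lower with chrysin than in high glucose (35.7% and 21.4%, all genes 24.9% and 20.9%), so the lower share was near that of all genes. In high against low glucose 4 were higher and 4 lower (28.6% each, all genes 14.6% and 8.91%). EIF4EBP1, an inhibitor of cap-dependent translation and a target of mTORC1, had 76.72, 76.58 and 79.28 FPKM with chrysin, 111.3, 105.3 and 104.1 FPKM in high glucose and 122.4, 127.3 and 124.9 FPKM in low glucose. It was lower with chrysin than in either other group (-0.46 against high glucose, adjusted p = 1.8e-06; -0.68 against low glucose, adjusted p = 8.1e-08). MTOR was higher with chrysin, at 70.57, 68.92 and 67.54 FPKM against 54.03, 56.86 and 57.81 FPKM in high glucose (0.29, adjusted p = 5.7e-05). MYC, which activates ribosomal protein and assembly genes, had 34.56, 35.47 and 37.44 FPKM with chrysin, 49.97, 44.76 and 45.07 FPKM in high glucose and 75.92, 78.63 and 75.89 FPKM in low glucose. The 3 groups did not overlap (-0.72 in high against low glucose, adjusted p = 4.8e-06). LARP1, which binds TOP messenger RNAs, was lower in high glucose at 231, 248.3 and 236 FPKM against 281, 274.7 and 279.2 FPKM in low glucose (-0.22, adjusted p = 0.00039). The LARP1 call was lost with own-median scaling (-0.14, adjusted p = 0.057).

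RACK1, a scaffold on the small subunit whose name does not follow the RPL and RPS pattern, was lower in high glucose than in low glucose, with 1147, 1082 and 1083 FPKM against 1189, 1183 and 1197 FPKM (-0.11, adjusted p = 0.013). The RACK1 call was lost with own-median scaling (-0.02, adjusted p = 0.49) and with no filter (0.056). Mitochondrial ribosomal proteins, which serve a separate ribosome, gave other counts. Of 77 tested, 31 were higher and 7 lower with chrysin than in high glucose (40.3% and 9.09%, all genes 24.9% and 20.9%), and 15 were higher and 3 lower in high than in low glucose (19.5% and 3.9%, all genes 14.6% and 8.91%), with medians of 0.118 and 0.063. The difference between the mitochondrial and the cytosolic list was not tested.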

How the data were processed

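PolyA RNA of 9 AC16 libraries was sequenced, and groups follow the treatment labels. Per the submitters' processing notes, the genome build was hg38 and the tools HTSeq 0.13.5, StringTie 2.2.1, HISAT2 2.2.1 and fastp 0.23.4, with no roles named. The values the authors deposited are FPKM; that unit was inferred from the values, since no header names it, and strand handling is not stated. Each of the 28230 genes detected in at least 2 libraries gave whole reads within 4.6e-05 reads, up to a divisor that its reads may share over the libraries. Genes seen in a single library were given a single read. The recovered reads of a gene can thus be too low. These reads supplied the depth and the voom alternative; precision per gene is given as SE or 95% confidence interval.

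Differences were tested by limma (3.58.1, R 4.3.3), using its trend option, on log2 of FPKM plus 0.5, a scale that understates changes of low genes. It was fitted to all 9 libraries and to the 16996 genes averaging 0.5 FPKM or more in some group. Contrasts were two-sided, and genes were called at a Benjamini-Hochberg adjusted p under 0.05 over all genes. The procedure was tested on simulated data with genes drawn independently, which cannot show how it handles shifts that many genes share in a library. The smallest exact permutation p for 3 against 3 libraries is 0.1. Genes were named, per comparison, from those called with groups that do not overlap (the 8 smallest p and the 3 largest rises and falls), with a list of 15 genes, the 5 highest and 5 lowest levels, and up to 3 called genes per related list; RPS27, RPL22 and RPL36A are named beside their paralogs, outside this rule. The genes, lists and tests were chosen with earlier results of these data known. Positions and overlaps came from GENCODE 29 and promoters from RefSeq. Alternatives were other pseudocounts, filters and scalings, a GC and length correction, voom, a replicate block, the compared groups only, each library left out, and, added after the data were seen, pseudogene reads. Some genes are not reported here.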

Additional observations from a re-analysis of the deposited data

How the results depend on the processing

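Direction and call were kept in 1456 of 1575 pairs of a gene's result and an alternative. A count was taken as close up to a ratio of 1.5, and a median within the SD of library medians in the groups compared. The median of 0.028 with chrysin against high glucose thus counted as close at -0.001 (median-of-ratios, GC and length), -0.002 (own-median, voom) and 0.065 (without high glucose library 1). Medians could hardly move when a library outside the groups compared was left out, with the replicate block, or with only the groups compared. The SD for high glucose also includes the distance of its library 1 from its other libraries, so closeness without library 1 is a weak check. By the rules above 153 of 189 counts and medians, those fixed by design included, stayed close to their value. The others moved as follows, with the share of all genes called the same way in parentheses, and apart from scaling to the family's own median, which centres the family by construction, the cause was not tested. For high glucose with chrysin against high glucose, 9 genes were higher with median-of-ratios scaling (22.4%) and 28 without mitochondrially encoded genes (26.8%), and 15, 18 and 15 were lower with own-median scaling, the GC and length correction and voom (21.3%, 23.7% and 25%). For high against low glucose, 11 were lower with no filter (3.61%), 39 with median-of-ratios scaling (11%), 45 with the GC and length correction (12.6%) and 54 with voom (13.3%), and own-median scaling gave 3 higher (22.1%), 2 lower (4.04%) and a median of -0.002. For high glucose with chrysin against low glucose, higher and lower genes numbered 2 and 44 with median-of-ratios scaling (24.8% and 25.6%; median -0.109), 18 and 14 with own-median scaling (32% and 16%; median 0.004), 3 and 46 with the GC and length correction (26.6% and 26.2%; median -0.107), 2 and 50 with voom (25.4% and 27.1%; median -0.116) and 10 and 39 with only the groups compared (30.6% and 22.3%); the median was -0.032 without mitochondrially encoded genes. With 1 library left out, 12 to 38 genes were higher with chrysin than in high glucose (21.4% to 24.5%), 10 to 55 were lower in high than in low glucose (6.55% to 8.55%), and 3 to 10 were higher (26.3% to 30.4%) and 17 to 37 lower (18.9% to 22.1%) with chrysin than in low glucose.

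Among the genes whose fold changes are given above, the signs that turned were of differences that had not passed the test. RPS10, whose level is uncertain, had 0.21 with chrysin against low glucose (adjusted p = 0.12) and 0.05 in high against low glucose (adjusted p = 0.78). With pseudogene reads added these were -0.09 (adjusted p = 0.44) and -0.21 (adjusted p = 0.13). With chrysin against high glucose, RPL11 was -0.02 with median-of-ratios scaling, own-median scaling and voom and -0.03 with the GC and length correction. RPL5 was 0.00, 0.00, -0.01 and -0.04 in that order, RPLP1 0.00, 0.00, 0.00 and -0.01, RPSA 0.00, 0.00, 0.00 and -0.01, RPS6 0.00 and RPS27 -0.03 with the GC and length correction and RPL7L1 0.01 without mitochondrially encoded genes. For high against low glucose, RPL7L1 was 0.00 with median-of-ratios scaling and voom, and RPL5, RPLP2 and RPSA were 0.03, 0.02 and 0.05 with own-median scaling. With chrysin against low glucose, RPL7L1 was -0.04, -0.05 and -0.01 with median-of-ratios scaling, voom and the GC and length correction. RPL5, RPL12, RPS6 and RPSA were 0.02, 0.04, 0.00 and 0.05 with own-median scaling, and RPL12 and RPSA were 0.00 and 0.01 without mitochondrially encoded genes. With 1 library left out the values ran from -0.03 to 0.07 for RPL11, -0.04 to 0.02 for RPL7L1 and -0.01 to 0.08 for RPLP1 (chrysin against high glucose), from -0.01 to 0.09 for RPL26L1 (high against low glucose), and from -0.01 to 0.05 for RPL7L1 and -0.02 to 0.01 for RPSA (chrysin against low glucose).

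Libraries with the same replicate number did not deviate together over all genes tested (correlations -0.0153 to 0.00802). A pairing with a weak shared effect could also give such values, so whether the numbers pair cultures is not known. A fit with the replicate number as a block gave 15 higher and 10 lower genes with chrysin against high glucose (all genes, 24.1% and 20.3%), 1 and 23 for high against low glucose (13.4% and 8.36%), and 6 and 25 with chrysin against low glucose (28.8% and 20.8%). The 95% confidence intervals had a median half-width of 0.08, and counting error was not separated from the spread between libraries. RPS10, the lowest main copy, had at least 46 reads in every library.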
